A study of Mus musculus with 8 samples.

Results

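The antimicrobial proteins that uterine epithelial cells secrete onto the mucosal surface are described here through 9 genes: Lcn2, Ltf, Defb1, Slpi, Wfdc2, Pglyrp1, Pigr, Reg3g and Lypd8. They were taken by name from the 24346 gene symbols of the deposited tables, and all 9 were found there. RNA from mouse uterine epithelium had been sequenced as 8 libraries, 3 labelled control and 5 labelled Smad2/3 cKO, and values are FPKM (fragments per transcript length and per library size). The cKO mice carried floxed Smad2 and Smad3 alleles and a Cre recombinase knocked into the progesterone receptor gene Pgr, so deletion was directed to cells that express Pgr, which per the labels include ovary, oviduct, mammary gland and pituitary as well as uterus. The background of every mouse was mixed C57BL/6/129S6/SvEv. The sources used here do not give the control alleles, age, cycle stage or method of isolating the epithelium. They also do not say that the libraries are from separate animals, so p-values measure only how these 8 libraries vary, and that may be technical variation.

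Mucosal epithelia keep microbes at a distance with secreted proteins that starve, lyse or bind them. Lipocalin 2 (Lcn2) captures bacterial siderophores and lactotransferrin (Ltf) binds iron, so both withhold it from bacteria. Beta-defensin 1 (Defb1) is a cationic peptide that damages microbial membranes. Slpi and Wfdc2 are small proteins of the whey acidic protein (WAP) type, of which Slpi inhibits neutrophil elastase. Pglyrp1 binds bacterial peptidoglycan, Pigr carries polymeric IgA across the epithelium, Reg3g is a C-type lectin that kills Gram-positive bacteria in the gut, and Lypd8 binds flagellated bacteria in the colon. In the mouse uterus Ltf is a classic oestrogen-responsive product. Lcn2, Ltf and Pglyrp1 are also granule proteins of neutrophils.

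Lcn2 was the most abundant member with a value in every library, and Slpi and Wfdc2 are WAP-type neighbours. With Lypd8 they are the members besides Defb1, among those with a value in every library, whose control and cKO values did not overlap. The promoters shown are those of Lcn2, Slpi, Wfdc2 and Lypd8. Each is the stretch of 250 bases directly before the transcript start (RefSeq, GRCm38.p6, which is mm10), written 5′ to 3′ on the strand of the gene. Lcn2 is chr2:32387740-32387989 on the minus strand, Slpi chr2:164356508-164356757 on the minus strand, Wfdc2 chr2:164562466-164562715 on the plus strand and Lypd8 chr11:58378782-58379031 on the plus strand. Capitals mark matches to 6 motifs: CAGAC (SMAD3 and SMAD4), GGCGCC (SMADs of the BMP type), the NF-kB motif, TTGCNNAA (C/EBP), GGTCA (half-site of nuclear receptors) and, as an element of many core promoters, TATAAA. Both strands were searched.
Lcn2: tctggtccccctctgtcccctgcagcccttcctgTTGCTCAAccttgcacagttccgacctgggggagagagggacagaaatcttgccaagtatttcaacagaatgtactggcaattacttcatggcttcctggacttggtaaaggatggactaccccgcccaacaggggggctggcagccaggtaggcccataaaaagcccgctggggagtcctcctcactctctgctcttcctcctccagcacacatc
Slpi: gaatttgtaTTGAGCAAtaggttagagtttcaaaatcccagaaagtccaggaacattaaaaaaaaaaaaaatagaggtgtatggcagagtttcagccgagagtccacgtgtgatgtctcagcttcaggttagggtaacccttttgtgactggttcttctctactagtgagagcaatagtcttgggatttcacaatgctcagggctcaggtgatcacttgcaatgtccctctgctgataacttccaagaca
Wfdc2: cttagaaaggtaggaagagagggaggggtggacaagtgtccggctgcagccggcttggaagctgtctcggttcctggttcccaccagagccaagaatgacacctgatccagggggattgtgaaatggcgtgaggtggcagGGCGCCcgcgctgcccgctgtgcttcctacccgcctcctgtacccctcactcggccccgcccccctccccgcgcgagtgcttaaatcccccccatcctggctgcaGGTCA
Lypd8: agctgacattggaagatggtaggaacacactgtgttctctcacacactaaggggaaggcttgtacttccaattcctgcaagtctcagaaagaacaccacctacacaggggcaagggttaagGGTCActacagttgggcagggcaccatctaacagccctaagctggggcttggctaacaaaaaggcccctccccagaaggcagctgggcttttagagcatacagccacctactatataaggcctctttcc
The marked stretches are TTGCTCAA in Lcn2 and TTGAGCAA in Slpi, both matches to the C/EBP motif, GGCGCC and GGTCA in Wfdc2, and GGTCA in Lypd8. Defb1 had no promoter entry, so it was not searched for any of the motifs. Of the 8 members with an entry, 3 held the C/EBP motif (Lcn2, Ltf and Slpi), against 9.57% of 32536 promoter windows of the same length, and 4 held GGTCA (Ltf, Lypd8, Pigr and Wfdc2), against 35.3%. GGCGCC was found in Wfdc2 alone of the 8 (9.65% of all windows) and CAGAC in Pglyrp1 alone (42.2%). The NF-kB motif was found in Pglyrp1 and Reg3g (4.11%) and TATAAA in Reg3g (12.3%). Such matches describe letters and not bound sites.

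The libraries were of like depth, at an estimated 46.3 to 58.0 M mapped fragments, and the 11 epithelial markers, Epcam and Krt8 among them, were all measured, with 0 called in either direction. The deleted gene Smad2 was lower in every cKO library (3.03 to 4.02 scaled FPKM) than in any control (5.69 to 6.35; log2 fold change -0.63 ± 0.10, limma adjusted p = 0.0055), while Smad3 overlapped (20.6 to 42.6 against 25.6 to 31.5; adjusted p = 0.837). Both values also count exons outside the deleted ones, so Smad3 here does not check the labels. By their numbered titles cKO 1 and cKO 2 form a pair apart, and the remaining 6 libraries are referred to as the main title series. Control 1 stood apart in summed stromal and muscle markers, at 579 scaled FPKM against 238 and 206 in the other controls. In bulk RNA fewer cells of a type and less RNA per cell cannot be told apart.

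Defb1 rose in the cKO epithelium and was the 1 member of the 6 tested that passed the test. Of the other 5 tested members, Lcn2 was lower and Slpi and Wfdc2 higher in every cKO library than in any control without passing, and the groups overlapped for Pglyrp1 and Pigr. Of the 3 members without a test, Reg3g and Lypd8 lay under the filter (a scaled FPKM of 1 or more in 3 or more libraries), and Ltf had no usable value in 6 libraries. Tests were limma fits on log2(scaled FPKM + 1) over 11315 genes, with Benjamini-Hochberg adjustment and a threshold of 0.05. Over all tested genes 14.3% were called (7.27% higher and 6.98% lower in cKO), and the 2 groups did not overlap for 24.6%. That is 823 genes higher and 790 lower, or 510 and 1662 with TPM. Among the 6 tested members the groups did not overlap for 4.

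**Figure D1:**
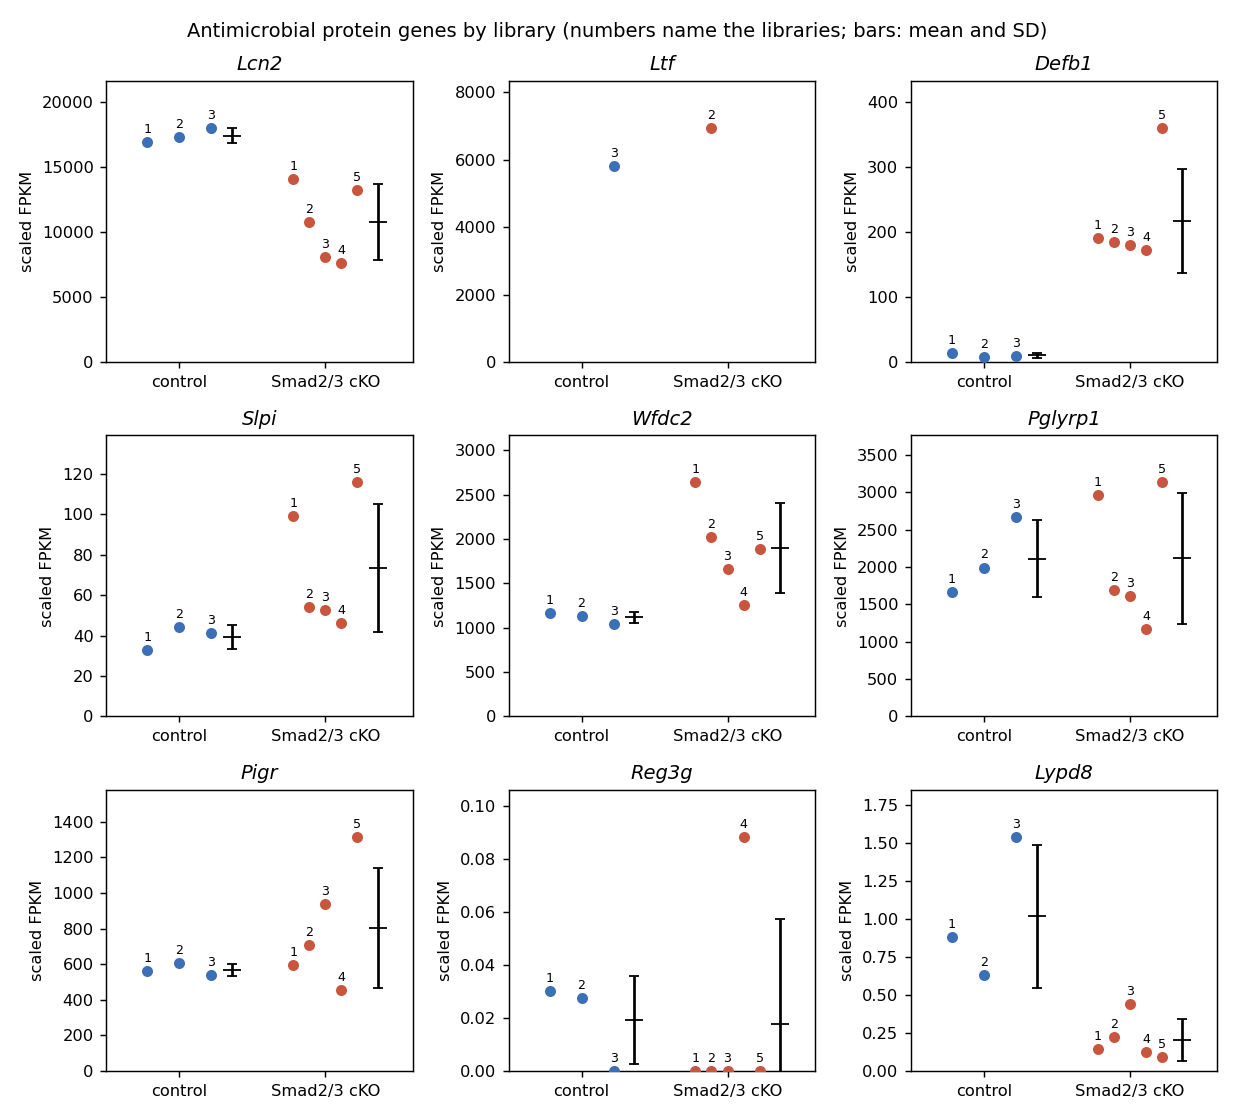
Scaled FPKM of the 9 genes in each library, on linear axes from 0. Points are libraries, numbered as in the text, and bars give the mean and SD of the group; Ltf has a value in control 3 and cKO 2 only. Defb1 lies between 171 and 360 in cKO against at most 13.9 in control, while Pglyrp1 and Pigr overlap.

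Defb1 (chromosome 8, 21776555 to 21795185 on mm10, plus strand) encodes the beta-defensin of epithelial surfaces. Its scaled FPKM was 13.9, 7.52 and 8.63 in the 3 controls, in their order, against 191, 184, 180, 171 and 360 in cKO 1 to 5. All 5 cKO libraries lay far above the controls, with 4 of them close together and cKO 5 apart at the top. The group means were 10.0 ± 3.41 (SD, n = 3) and 217 ± 80.0 (SD, n = 5), a 21.7-fold difference of means. The log2 fold change was 4.29 ± 0.27 (SE), with a 95% interval of 3.67 to 4.91 (limma adjusted p = 7.25e-05; by exact permutation p = 0.0179, which no split of the 56 can undercut). It stayed past the threshold in all 21 alternatives, between 4.09 and 4.53, and was 4.40 within the main title series. By listed FPKM Defb1 went from rank 4264 at best among all symbols in control to rank 318 or better in every cKO library. Of 33 other defensin genes in the tables, 26 were listed at 0 in all 8 libraries and 1, Defb3, passed the filter, at 3.94 ± 4.45 against 3.52 ± 3.29 in control and cKO (limma adjusted p = 0.952).

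Lcn2 (chromosome 2, 32384637 to 32387739, minus strand) was the most abundant gene by listed FPKM in all 3 controls and ranked 2 or 3 in the cKO libraries. Transcripts with more fragments than Cufflinks was set to process are listed at 0 and so could not rank. Only control 3 and cKO 2 held none of these, with Lcn2 at rank 1 and 3. In the other libraries its rank is the best it could be. The scaled FPKM of Lcn2 was 16933, 17337 and 18024 in the 3 controls, in their order, a narrow range. In cKO 1 to 5 it was 14100, 10748, 8065, 7609 and 13223. Every cKO library was below every control, and the coefficient of variation was 3.16% in control and 27.3% in cKO. The log2 fold change was -0.74 ± 0.31, with a 95% interval of -1.45 to -0.04, and did not pass (limma adjusted p = 0.142; exact permutation p = 0.0357). By group means the level was 1.62-fold lower in cKO, 10749 ± 2933 against 17431 ± 552. TPM, each library rescaled to a fixed sum, shifted the median log2 fold change of all genes from -0.0050 to -0.20. TPM gave Lcn2 -0.95 (adjusted p = 0.0497), with a sum that held Ltf in control 3 and cKO 2 only. Quantile normalization gave -1.03 (adjusted p = 0.00494). With no variance trend the adjusted p was 0.0524, and with array weights 0.0504. Over all alternatives the adjusted p ran from 0.00494 to 0.892, with a negative sign throughout. The highest was with no filter, where the SE was 2.70 against 0.31 in the main fit.

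Ltf (chromosome 9, 111019292 to 111042766, plus strand) could be read in 1 library of each group, at 5809 scaled FPKM in control 3 and 6949 in cKO 2, rank 4 in both. These values rest on about 879248 and 878475 fragments. In the other 6 libraries Ltf carries the status HIDATA, which Cufflinks gives to a locus with more fragments than it was set to process, and its listed 0 is a missing value. The comparison of the groups was not possible for Ltf, since 1 value a group gives no spread.

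Slpi and Wfdc2, the WAP-type members, lie on chromosome 2 at 164354070 to 164356507 (minus strand) and 164562716 to 164568506 (plus strand). Slpi, the elastase inhibitor, was at 32.8, 44.1 and 41.5 scaled FPKM in the 3 controls, in their order, against 99.2, 54.1, 52.5, 46.1 and 116 in cKO 1 to 5. The groups did not overlap, but cKO 4 lay just above control 2, and cKO 1 and cKO 5 stood well above the rest. Before scaling cKO 4, at 46.4 FPKM, lay just below control 2, at 46.9. The fragments of Slpi estimated from interval widths were 812 to 1035 in control and 1018 to 1500 in cKO. They rose less than its FPKM, from 1035 at 46.9 FPKM in control 2 to 1500 at 114 FPKM in cKO 5. For Slpi this estimate is therefore no guide to whether the groups overlap. Its log2 fold change was 0.79 ± 0.31 and did not pass (limma adjusted p = 0.122; exact permutation p = 0.0893). GENCODE places the microRNA gene Mir7678 within the Slpi locus on the same strand.

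Wfdc2, also called HE4, is a WAP-type protein of genital tract epithelia and was far more abundant per length than Slpi. It was at 1170, 1135 and 1040 scaled FPKM in the 3 controls, in their order, against 2638, 2023, 1665, 1256 and 1890 in cKO 1 to 5. Here too the groups did not overlap, with cKO 4 the nearest to the controls. The means were 1115 ± 67.5 (SD, n = 3) and 1894 ± 507 (SD, n = 5), and the log2 fold change of 0.72 ± 0.24 (95% interval 0.19 to 1.26) missed the threshold (limma adjusted p = 0.075; by exact permutation p = 0.0357). Leaving out cKO 4, the log2 fold change was 0.86 and passed (adjusted p = 0.0287), and with array weights both Wfdc2 (0.72, adjusted p = 0.0195) and Slpi (0.73, adjusted p = 0.0497) passed. Within the main title series the values were 0.51 for Wfdc2 and 0.73 for Slpi, neither past the threshold.

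**Figure D2:**
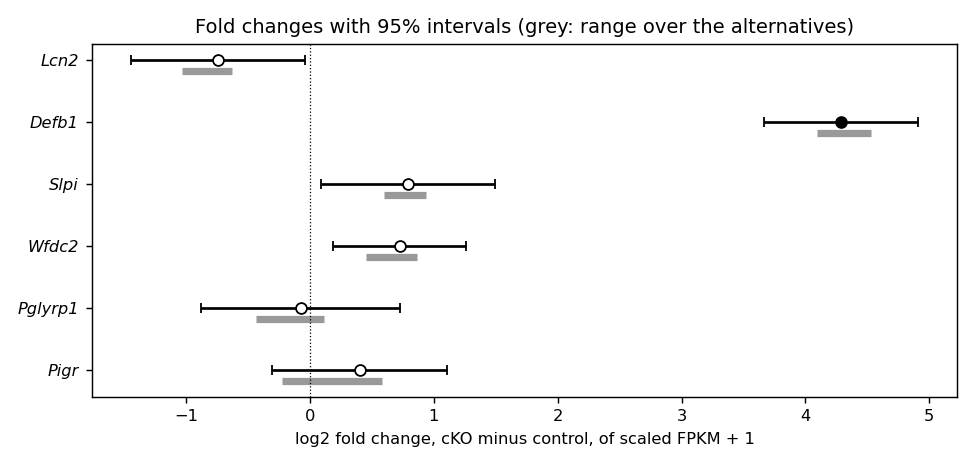
Log2 fold change of the 6 tested members, cKO minus control, on the log2(scaled FPKM + 1) scale. Points are limma estimates with 95% intervals, filled where the adjusted p is below 0.05 (Defb1 alone), and grey bars span the 21 alternatives. The interval of Defb1, 3.67 to 4.91, lies apart from those of the other 5 members.

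The WAP-type genes of the surrounding cluster lay in both directions. The tables hold 16 such genes within 567 kb of chromosome 2, Slpi and Wfdc2 included. For 3 of them, the neighbours Wfdc15b, Slpi and Wfdc2, every cKO library lay above every control. For 5 genes further along the chromosome, Eppin, Wfdc8, Wfdc16, Wfdc11 and Wfdc13, every cKO library lay below every control, and for the remaining 8 the groups overlapped. Of the 5, Eppin, Wfdc8, Wfdc11 and Wfdc13 were under the filter. Among all genes past the filter, every cKO library lay above the controls for 11.7% and below them for 12.9%. Wfdc15b rose, from 0.910 ± 0.391 to 7.32 ± 3.71 scaled FPKM (log2 fold change 2.04 ± 0.32, limma adjusted p = 0.00546, but 0.0701 with the neutrophil level as a term), and Wfdc16 fell, from 2.48 ± 1.11 to 0.512 ± 0.303 (-1.17 ± 0.24, adjusted p = 0.0151). Wfdc10, the most abundant of the genes beyond Wfdc2, fell from 37.9 ± 14.9 to 11.4 ± 8.15 (-1.77 ± 0.47, adjusted p = 0.0374), with cKO 1 at 25.3 inside the control range of 20.8 to 47.4. That call was lost without control 2 (adjusted p = 0.156), control 3 (0.15), cKO 2 (0.0702), cKO 3 (0.0504), cKO 4 (0.0652) or cKO 5 (0.0606). Wfdc13, at 1.89 ± 0.977 against 0.0702 ± 0.0443, and Wfdc8, at 0.638 ± 0.513 against 0.0142 ± 0.0168, have no test. Elsewhere in the genome Wfdc17 rose from 5.52 ± 1.46 to 14.3 ± 6.93 (adjusted p = 0.0437), a call lost without control 1 (0.0998), control 2 (0.183), control 3 (0.0918), cKO 1 (0.0769) or cKO 3 (0.0625). Of the 19 family members besides Slpi and Wfdc2, 7 were tested, with 2 higher and 2 lower, against 7.27% and 6.98% of all tested genes. Their median log2 fold change was 0.46, against -0.0050 over all tested genes. Without 1 library 1 to 3 were higher and 0 to 2 lower, with 1 and 0 without control 2 or control 3.

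**Figure D3:**
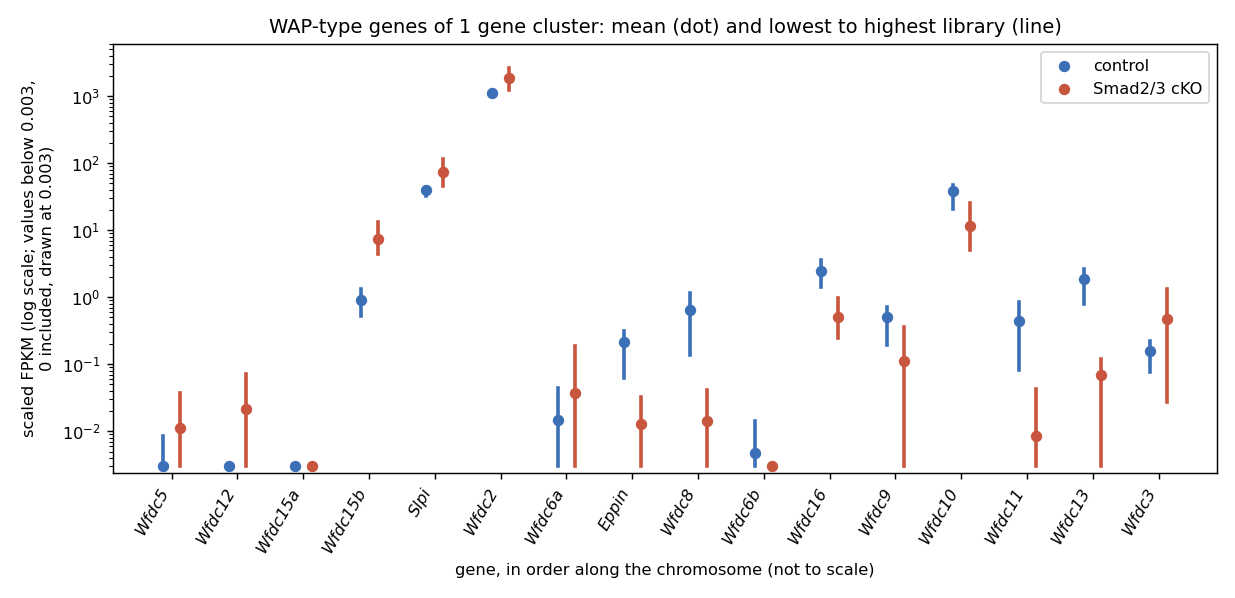
Scaled FPKM (log axis) of the 16 WAP-type genes of the cluster, in chromosomal order and not to scale; dots are group means and lines run from the lowest to the highest library. Wfdc15b, Slpi and Wfdc2 lie higher in cKO, and Eppin, Wfdc8, Wfdc16, Wfdc11 and Wfdc13 lower, without overlap.

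Pglyrp1 (chromosome 7, 18884690 to 18890438, plus strand), the peptidoglycan-binding protein, ranked next to Lcn2 among the members measured in every control and varied within each group. Its scaled FPKM was 1670, 1992 and 2672 in the 3 controls, in their order, against 2966, 1687, 1616, 1163 and 3132 in cKO 1 to 5. The cKO values lay on both sides of the controls, with nearly equal means of 2111 ± 511 (SD, n = 3) and 2113 ± 880 (SD, n = 5). The log2 fold change was -0.07 ± 0.35 (limma adjusted p = 0.906), and its 95% interval of -0.88 to 0.73 leaves room for a sizeable difference either way. Its relative Pglyrp3 rose at a far lower level, from 0.130 ± 0.131 to 1.70 ± 0.717 (log2 fold change 1.22 ± 0.22, adjusted p = 0.00968, or 0.0568 without control 2). Of the 21 related lectins, peptidoglycan-recognition and Lypd proteins, 6 were tested, with 1 higher and 0 lower and a median log2 fold change of 0.35. The shares over all tested genes were 7.27% higher and 6.98% lower. Surfactant protein D (Sftpd), a lectin named after its values were seen, was at 607 ± 57.1 against 778 ± 206 (adjusted p = 0.363).

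Pigr (chromosome 1, 130826684 to 130852249, plus strand), the IgA transporter, was tight in control and spread in cKO. It was at 562, 606 and 538 scaled FPKM in the 3 controls, in their order, against 594, 709, 936, 457 and 1316 in cKO 1 to 5. The lowest value of all was that of cKO 4 and the highest that of cKO 5, a 2.88-fold range among the cKO libraries. The log2 fold change of 0.40 ± 0.31 (95% interval -0.31 to 1.11) did not pass (limma adjusted p = 0.401; exact permutation p = 0.339). Of the markers of the B and plasma cells that make IgA, 3 passed the filter. Jchain, Cd79a, Mzb1, Ms4a1 and Derl3 were under it, with group means of at most 0.858 scaled FPKM. Cd79b, named after its values were seen, was at 4.95 ± 0.928 in control and 7.23 ± 2.35 in cKO and was not called (adjusted p = 0.243). The summed level of that list was 148 to 246 scaled FPKM in control and 374 to 634 in cKO. The called members, Sdc1 (from 61.5 ± 2.96 to 159.9 ± 37.5, adjusted p = 0.00294) and Xbp1 (from 121 ± 52.1 to 282 ± 85.7, adjusted p = 0.0319), are also expressed by epithelial cells. These are 2 of the 3 tested, against 7.27% called higher over all tested genes. The call of Xbp1 was lost in 11 of 21 alternatives, among them without control 2 (0.132), control 3 (0.14), cKO 1 (0.0567), cKO 2 (0.0583), cKO 4 (0.0519) or cKO 5 (0.0528).

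Lypd8 and Reg3g, both known from the gut, were at the lower end. Lypd8 (chromosome 11, 58379032 to 58390541, plus strand) was at 0.881, 0.634 and 1.54 scaled FPKM in the 3 controls, in their order, against 0.144, 0.226, 0.439, 0.122 and 0.0890 in cKO 1 to 5. All cKO libraries lay below all controls, though the values rest on an estimated 31.5 to 55.5 fragments in control and 2.95 to 18.1 in cKO. By group means it was 4.99-fold lower in cKO, and the difference on the log2(scaled FPKM + 1) scale was -0.73 (exact permutation p = 0.0179, the smallest possible; the same scale understates the change of a gene this low). It was below the filter; with no filter it passed limma (adjusted p = 0.0299). With TPM it met the filter and passed as well, at -1.31 (adjusted p = 0.0117). Of its 2 transcripts, NM_001083884 was above 0 in control 3 alone, at 0.715 beside 0.827 for NM_027339, and in the other 7 libraries NM_027339 held the whole value. Reg3g (chromosome 6, 78466268 to 78468874, minus strand) was listed at 0 in control 3 and in cKO 1, 2, 3 and 5. It rested on 1 fragment each in controls 1 and 2 and on 3 fragments in cKO 4, so no difference was detectable at this depth (exact permutation p = 1).

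As a sum, the 8 members with a value in every library stood at 20383 to 22325 scaled FPKM in control and at 10703 to 20588 in cKO. This was 5.36% to 6.04% of all FPKM in control and 2.77% to 4.48% in cKO. All FPKM includes Ltf in control 3 and cKO 2 only, so these percentages are not fully alike between libraries. Lcn2 made up most of the sum of the 8 members, 80.7% to 83.1% in control and 64.4% to 71.1% in cKO. The share of Wfdc2 in it was 4.66% to 5.74% in control and 9.43% to 13.3% in cKO. The ratio of Wfdc2 to Lcn2, which no scaling between libraries can move, was 5.77% to 6.91% in control and 14.3% to 20.6% in cKO. That of Slpi to Lcn2 was 0.194% to 0.254% and 0.503% to 0.877%, and that of Pglyrp1 to Lcn2 was 9.86% to 14.8% and 15.3% to 23.7%. These ratios are a description: with Lcn2 below and Wfdc2 and Slpi above the controls in every cKO library, the first and second could not have overlapped.

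**Figure D4:**
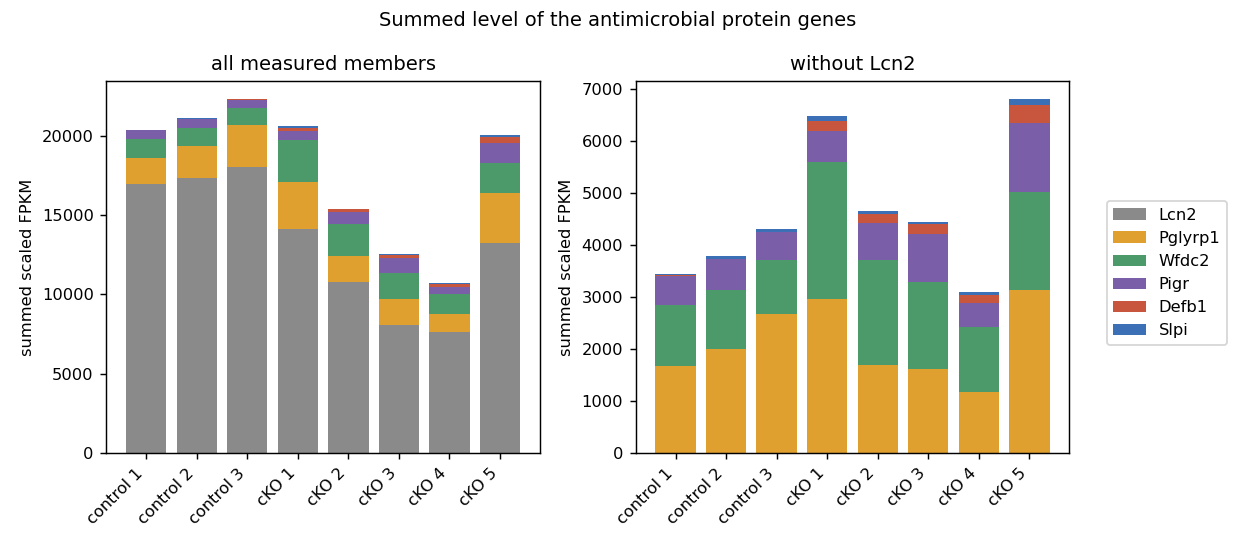
Summed scaled FPKM of the measured members per library, with all members on the left and without Lcn2 on the right; Reg3g and Lypd8 are too low to be seen and Ltf is left out. Lcn2 dominates each library, and without it the cKO libraries run from 3094 to 6814 against 3450 to 4301 in control.

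The cKO libraries differed among themselves. All 6 tested members had their lowest cKO value in cKO 4, 4 had their highest in cKO 5 and 2 (Lcn2 and Wfdc2) in cKO 1. For Defb1 the value of cKO 4, 171 scaled FPKM, was close to the 180 to 191 of cKO 1 to 3. How many of all tested genes share such an order was not counted, so these counts are no result about the members. For 4 members both cKO 1 and cKO 5 lay above the other 3 cKO libraries. In cKO 4 the summed epithelial markers were also the lowest of the cKO libraries, at 4744 scaled FPKM against 5072 to 7396 in the other 4 and 5581 to 6023 in control. Their part in the values of cKO 4 was not tested.

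The list of neutrophil markers has 16 genes, of which 10 were tested. All 10 log2 fold changes were positive, with a median of 1.14. Called were 2 higher (Retnlg and Il1r2) and 0 lower, against 7.27% and 6.98% of all tested genes. Without 1 library the count was 0 to 4, with 0 without control 1, control 2, cKO 1, cKO 2 or cKO 5, 1 without control 3 or cKO 3 and 4 without cKO 4. The summed level of the list was 218, 258 and 423 scaled FPKM in the 3 controls, in their order, against 1278, 1209, 2016, 315 and 1816 in cKO 1 to 5. By this sum cKO 4 lay among the controls and the other 4 cKO libraries above them. S100a8 and S100a9 were the most abundant genes of the list and weigh most in the sum. In cKO 4 both called markers lay above every control, Retnlg at 2.39 against at most 1.57 and Il1r2 at 13.6 against at most 13.2. Retnlg rose from 1.01 ± 0.485 to 27.8 ± 29.5 (adjusted p = 0.0392), a call lost without control 1 (0.101), control 2 (0.143), control 3 (0.108), cKO 1 (0.0575), cKO 2 (0.0673) or cKO 5 (0.0768). Il1r2 rose from 7.74 ± 4.76 to 17.9 ± 5.56 (adjusted p = 0.0432), a call lost without control 1 (0.135), control 2 (0.182), cKO 1 (0.0686), cKO 2 (0.0716), cKO 3 (0.0644) or cKO 5 (0.0548). The calprotectin genes S100a8 and S100a9, named after their values were seen, were at 65.0 ± 37.6 against 397 ± 239.6 and 207 ± 55.8 against 841 ± 399 (adjusted p = 0.0545 and 0.054). No marker of the list was at 0 throughout. Of its granule genes, Elane, Camp and Ngp were at most 0.276 scaled FPKM in group mean, with Camp at 0.0651 against 0.0640. Other granule genes of the list were higher in cKO by group mean. Mpo was at 0.154 ± 0.0568 against 0.943 ± 0.530 and Prtn3 at 0.589 ± 0.0264 against 1.37 ± 1.23, both under the filter. Mmp8 and Mmp9 had log2 fold changes of 1.09 and 0.53 and were not called (limma adjusted p = 0.153 and 0.472). In cKO 4 Defb1 was at 171 scaled FPKM. With the neutrophil level as a term the log2 fold change of Defb1 was 4.24 (adjusted p = 0.00397). With that term Lcn2 was at -0.80, Slpi at 0.68, Wfdc2 at 0.62, Pglyrp1 at -0.43 and Pigr at -0.22, none past the threshold. The term, the mean log2 level of the tested markers, was 2.40 to 3.33 in control and 3.02 to 4.98 in cKO. As it went largely with the groups, it cannot separate a part of neutrophils from the genotype. The part of neutrophils in the members' values was therefore not tested.

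**Figure D5:**
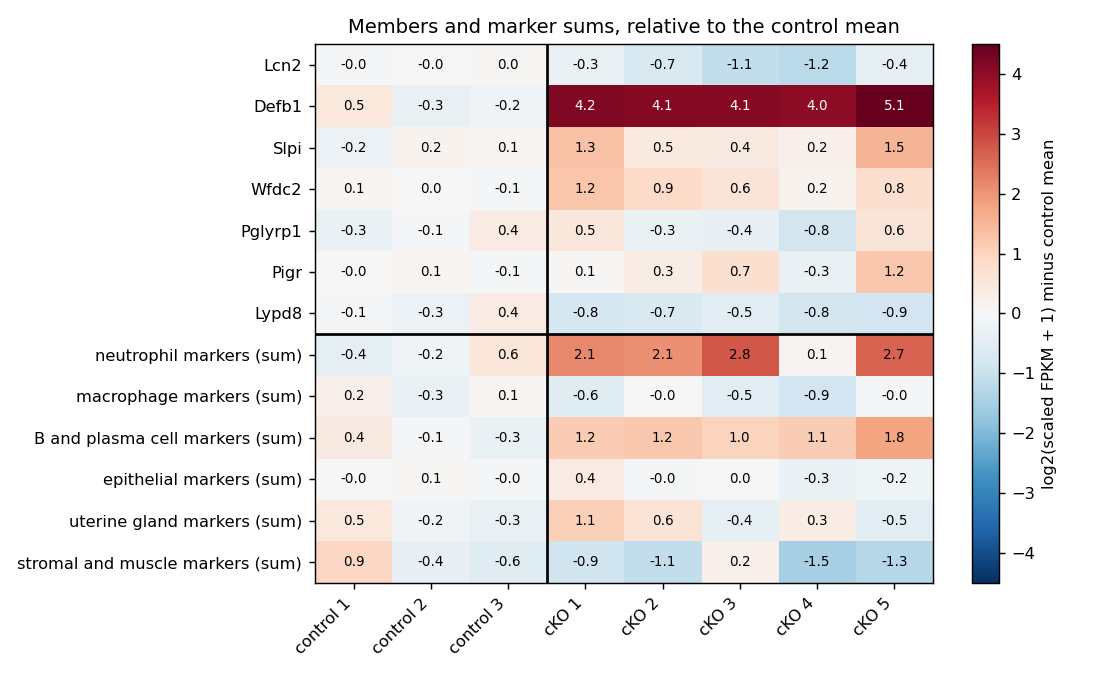
Members (upper rows) and summed marker lists (lower rows) in each library, as log2(scaled FPKM + 1) minus the mean of the controls. Defb1 lies 4.01 or more above in each cKO library, and the neutrophil sum 2.07 to 2.81 above in 4 of them and 0.13 above in cKO 4.

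Of 26 other secreted antimicrobial proteins in the list 12 were tested. Among these 4 were higher and 1 lower, against 7.27% and 6.98% of all tested genes, and their median log2 fold change was 1.12. The count of higher genes was 1 without control 2 and 2 without control 3, and 1 with a stromal and muscle term, while array weights gave 7. Lactoperoxidase (Lpo), an enzyme of mucosal secretions, rose from 15.0 ± 5.22 to 119 ± 39.5 scaled FPKM (2.90 ± 0.32, adjusted p = 0.00126). The ribonuclease Rnase4 rose from 62.6 ± 12.1 to 125 ± 35.0 (adjusted p = 0.021, but 0.109 without control 2, 0.0815 without control 3 and 0.0551 within the main title series). Chil1, a chitinase-like lectin, rose from 1667 ± 540.1 to 7748 ± 3022 (2.18 ± 0.39, adjusted p = 0.00891, but 0.057 without control 2, 0.179 with no filter and 0.056 with a stromal and muscle term). Properdin (Cfp), which stabilizes the complement convertase, fell from 38.1 ± 9.28 to 7.02 ± 1.13 (-2.27 ± 0.17, adjusted p = 2.01e-04). The list shares 8 genes with the other lists, 4 of them neutrophil markers.

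Genes that sense microbes or relay the signals known to induce antimicrobial proteins were also examined. Of 27 tested, 7 were higher and 1 lower, against 7.27% and 6.98% of all tested genes. The median log2 fold change of the 27 was 0.24. The count of higher genes fell to 1 without control 2 or control 3 and to 4 without control 1 or cKO 1, and the count of lower genes was 2 without cKO 1 or cKO 2. With a stromal and muscle term 1 was higher, and with array weights 13 were. The TNF receptor gene Tnfrsf1a rose from 27.5 ± 1.98 to 45.5 ± 3.71 scaled FPKM (0.71 ± 0.10, adjusted p = 0.00321). Tlr4, the lipopolysaccharide receptor, rose from 7.61 ± 1.52 to 12.9 ± 1.88 (adjusted p = 0.0158) and the transcription factor gene Cebpd, a C/EBP family member, from 32.9 ± 2.39 to 55.0 ± 8.51 (adjusted p = 0.0117). Without control 2 or control 3 both calls were lost, at 0.0877 and 0.0816 for Tlr4 and 0.0653 and 0.0685 for Cebpd. The interleukin-1 receptor gene Il1r1 fell from 13.8 ± 0.998 to 3.59 ± 1.95 (-1.78 ± 0.27, adjusted p = 0.00474, or 0.0696 with the neutrophil level as a term). Among lipocalin and transferrin relatives 1 of 6 tested was higher, the acute-phase lipocalin Orm1, and 0 were lower. Orm1 rose from 8.18 ± 5.11 to 139.6 ± 138 (adjusted p = 0.0231, but 0.11 without control 2, 0.0933 without control 3, 0.0503 without cKO 1 and 0.089 within the main title series).

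The other marker lists gave the following counts, where the shares over all tested genes were 7.27% higher and 6.98% lower. Of gland markers 4 of 9 were tested and the gland factor Foxa2 rose from 0.790 ± 0.301 to 5.26 ± 0.785 scaled FPKM (adjusted p = 3.07e-04), while Ttr, Prss28 and Spink1 were at 0 throughout. Of gut Paneth and goblet cell markers 5 of 13 were tested, and 5 were at 0 throughout. Of those tested, Agr2 rose from 1.89 ± 0.648 to 8.40 ± 1.84 (adjusted p = 0.00142) and the mucus protein gene Fcgbp fell from 1364 ± 210.0 to 629.8 ± 249 (adjusted p = 0.0426), a call lost without control 1 (0.109), control 2 (0.168), control 3 (0.101), cKO 2 (0.0675), cKO 3 (0.0531) or cKO 5 (0.0722). With the neutrophil level as a term the log2 fold change of Fcgbp was -0.40 (adjusted p = 0.501), against -1.20 without it. Of 13 tested stromal and muscle markers 0 were higher and 1, Nr2f2, was lower, from 8.54 ± 1.09 to 5.47 ± 0.694 (adjusted p = 0.0175, but 0.0611 without control 1, 0.0978 without control 2 and 0.0593 within the main title series), with a median log2 fold change of -0.98. Macrophage markers had 0 of 6 called, with Cd68 at 101 ± 18.9 against 68.5 ± 19.6 (adjusted p = 0.116) and Lyz2 at 16.3 ± 3.71 against 21.3 ± 10.8 (adjusted p = 0.613). Of T and NK cell markers only Gzmb was tested, at 0.466 ± 0.274 against 1.87 ± 1.22 (adjusted p = 0.0908). Of the epithelial markers, Krt19 was at 1765 ± 149 against 1507 ± 482 (adjusted p = 0.478) and Cldn7 at 628 ± 55.0 against 748 ± 121 (adjusted p = 0.335).

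The genes whose pattern over the 8 libraries was nearest to that of each tested member were found by the root mean square difference of centred log2(scaled FPKM + 1). For Defb1 they were Id3 (0.305), Sult1d1 (0.429) and Id1 (0.459), where Id1 and Id3 are BMP target genes and Sult1d1 a sulfotransferase. Their levels went, for Id1, from 16.7 ± 2.57 to 278 ± 30.4 and, for Id3, from 3.58 ± 0.905 to 98.2 ± 21.8 scaled FPKM. As these genes were chosen for their likeness, their direction is no separate result. For Lcn2 they were Cda (0.14), the cytidine deaminase gene, Blvrb (0.17), a biliverdin reductase gene, and Pcbd2 (0.19). For Slpi the nearest were Pdzk1ip1 (0.27), Ugcg (0.28) and Cers3 (0.28), of which Ugcg and Cers3 make sphingolipids. For Wfdc2 they were Rps12, Tbc1d1 and Rpl39 (each 0.14), for Pglyrp1 4930415O20Rik (0.24), Bri3 (0.25) and Bik (0.26), and for Pigr Adam28 (0.18), Optn (0.19) and Galns (0.21).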

How the data were processed

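RNA of 3 control and 5 Smad2/3 cKO libraries had been made into cDNA with random and poly-dT primers, per the labels' protocols. The submitters' processing notes name bcl2fastq 1.8.3, TopHat and Cufflinks with mm10; the sources used here give no other version, annotation release or strand setting. The authors deposited FPKM per transcript (34535 per library), with intervals and a status. Their deposited coverage signal stayed unused. Fragment numbers and depth were estimated from interval widths. Of low genes with 1 transcript, 79.3% to 80.7% gave a number within 0.02 of a whole, so no count test was run.

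FPKM was summed per symbol and scaled by median ratios (0.924 to 1.06). The 15 genes with a status other than OK anywhere were left out. limma 3.58.1 (R 4.3.3) tested the 11315 genes past the filter, two-sided, on log2(scaled FPKM + 1) using a mean-variance trend. The adjusted p-values are of this test, and ± is an SE after a log2 fold change and an SD elsewhere (n = 3 control and 5 cKO libraries). Members were also tested by exact two-sided permutation over 56 splits. The fit was tested on simulated data. The members and the 14 gene lists were chosen with earlier results of these data known. Up to 4 called genes per list are named by adjusted p, or the 2 most abundant tested where none was called. For each tested member the 3 genes nearest in pattern, with a mean of 5 or more, are named.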

Additional observations from a re-analysis of the deposited data

Results flagged for a closer look

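Defb1 in cKO 5, at 360 scaled FPKM, stood apart from the other 4 cKO libraries, of which the next was at 191. The gap was 0.898 of the whole range of the 5 libraries, above the critical value of 0.71 (Dixon). Leaving out cKO 5, the log2 fold change was 4.09 and stayed past the threshold (adjusted p = 2.96e-05). Reg3g in cKO 4, at 0.0882 scaled FPKM, stood apart from the other 4 cKO libraries, which were listed at 0, and rests on 3 fragments. The cKO values of 8 members were examined in this way, and chance alone marks about 1 in 20 such groups if values are normal. For Reg3g, with the other 4 cKO libraries at 0, the gap is the whole range whatever the value. The flag of Reg3g was thus fixed in advance, and that rate does not hold for it.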

How the results depend on the processing

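No paired analysis was run because the labels give no pairing of control with cKO libraries. Over all genes 823 were called higher and 790 lower. TPM gave 510 and 1662, so that 23.5% of calls were higher against 51.0%, array weights 1793 and 1733, a stromal and muscle term 322 and 271, and a neutrophil term 308 and 294. Leaving out 1 library gave 238 to 928 higher and 176 to 887 lower, lowest without control 2 (238 and 186) and control 3 (242 and 176), and 441 lower without control 1. Of the members 1 was called higher and 0 lower. Array weights called 3 higher, and without cKO 4 there were 2, the range being 1 to 2 without 1 library. TPM called 2 lower (Lcn2 and Lypd8), quantile normalization 1 (Lcn2) and no filter 1 (Lypd8). Signs turned for uncalled genes only: Pglyrp1 without control 3 (0.11) and cKO 4 (0.12; -0.24 to 0.12 without 1 library), Pigr (-0.22) and Lyz2 (-0.46) with the neutrophil term, Cldn7 with quantile normalization (-0.13), and Defb3 with array weights (0.35), the stromal term (0.25), the neutrophil term (1.64) and without control 1 (0.63), cKO 2 (0.03), cKO 3 (0.19) or cKO 5 (0.13; -0.49 to 0.63 without 1 library). The cause was not tested. Depth limits Reg3g and Lypd8, and no alternative gave Ltf a test.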
